A study of Mus musculus with 2 samples.

Results

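The Kruppel-like factors (KLFs) are zinc finger transcription factors, and 10 of their genes, Klf2, Klf3, Klf4, Klf6, Klf7, Klf9, Klf10, Klf11, Klf12 and Klf13, are described here in the naive helper (CD4) and cytotoxic (CD8) T cells of the mouse. They were taken by symbol from a list of names, and each stood on 1 row among the 23167 symbols of the deposited tables, which list 17 KLF symbols in all. Naive CD4 cells and naive CD8 cells came from spleen and lymph nodes of Foxp3-GFP mice on a C57/BL6 background, in which GFP marks cells that express Foxp3. The sort kept cells low in CD44 and without CD25 or GFP, and their RNA was sequenced after ribosomal RNA depletion as part of a study of 5-hydroxymethylcytosine in T cell development. No age, sex or number of animals is given in the sources used here. Each cell type had a single library (n = 1), so nothing below could be checked in replicates, no test across samples was possible, and every interval covers counting error only.

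KLFs bind GC-rich and CACCC-type DNA through a conserved zinc finger array at the C-terminus, while their other end differs and recruits activators or repressors. By textbook grouping, KLF2, KLF4, KLF6 and KLF7 act mainly as activators, KLF3 and KLF12 recruit the corepressor CtBP, and KLF9, KLF10, KLF11 and KLF13 recruit the corepressor Sin3A. In T cells, KLF2 keeps resting cells quiescent and maintains transcription of S1pr1, which naive cells need to leave the thymus and to recirculate, and KLF4 restrains division of CD8 cells. Their genes are shut down when a T cell is activated through its receptor.

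Several KLF promoters carry the letters that KLF and Sp proteins themselves read. Klf4, like Klf2, Klf6 and Klf11, was lower in CD4. Its promoter is shown with those of the 3 genes at the highest level, Klf2, Klf6 and Klf13. Each is the 250 bases before the RefSeq start of the gene, written 5′ to 3′ on the strand of the gene in the mouse build GRCm38.p6, a later build than the mm9 of the expression files. The positions are chr8:72318812-72319061 (plus strand) for Klf2, chr13:5861239-5861488 (plus strand) for Klf6, chr4:55532476-55532725 (minus strand) for Klf4 and chr7:63938916-63939165 (minus strand) for Klf13. Capitals mark GC boxes, GGGCGG or CCGCCC, and in Klf2 a match to the MEF2 core, CTA and TAG with any 4 bases between them.
Klf2 promoter: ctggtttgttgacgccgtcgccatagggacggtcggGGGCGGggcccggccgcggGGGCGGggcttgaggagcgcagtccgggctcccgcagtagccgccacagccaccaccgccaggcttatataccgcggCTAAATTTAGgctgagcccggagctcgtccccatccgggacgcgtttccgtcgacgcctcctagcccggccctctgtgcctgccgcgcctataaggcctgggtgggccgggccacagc
Klf6 promoter: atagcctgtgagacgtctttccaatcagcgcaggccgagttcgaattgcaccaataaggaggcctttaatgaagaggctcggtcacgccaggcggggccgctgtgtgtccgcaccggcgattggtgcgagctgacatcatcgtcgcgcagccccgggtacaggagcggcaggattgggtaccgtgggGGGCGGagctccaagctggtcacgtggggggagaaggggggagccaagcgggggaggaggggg
Klf4 promoter: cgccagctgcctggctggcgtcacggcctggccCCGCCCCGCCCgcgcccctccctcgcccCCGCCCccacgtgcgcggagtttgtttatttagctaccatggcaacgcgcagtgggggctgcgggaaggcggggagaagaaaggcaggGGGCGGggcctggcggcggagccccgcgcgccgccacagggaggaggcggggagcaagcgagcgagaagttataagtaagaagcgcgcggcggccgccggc
Klf13 promoter: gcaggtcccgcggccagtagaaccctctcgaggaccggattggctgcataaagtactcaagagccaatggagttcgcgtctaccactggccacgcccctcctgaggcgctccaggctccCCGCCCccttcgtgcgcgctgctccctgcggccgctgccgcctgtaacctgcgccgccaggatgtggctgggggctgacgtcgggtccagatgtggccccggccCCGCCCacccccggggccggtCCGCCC

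GC boxes, searched on both strands with overlaps counted, were in 7 of the 9 KLF promoters that could be matched to RefSeq, against 32.7% of all 32851 promoter windows of this length. Klf3 held 6 matches, Klf4 and Klf11 held 4 each, Klf13 held 3 and Klf2 held 2. Klf9 and Klf12 held none, and Klf10 had no entry. The MEF2 core was in the Klf2 promoter alone among the 9, from 118 to 109 bases before the start, and in 3.2% of all windows. MEF2 factors carry the signal of the kinase ERK5 to Klf2 in endothelial cells and thymocytes. The CCAAT box was in 4 of the 9, with 4 matches in Klf6, against 33.8% of all windows. The FOXO letters GTAAACA were in Klf9 alone and in 3.17% of all windows, and the ETS letters CCGGAA were in 0 of the 9 and in 12.0% of all windows. These are matches of letters in a short window, and no binding was measured. The shares over all windows were not matched for content of G and C. The KLF promoters other than that of Klf12 were richer in G and C than the median of 52.4% over all windows. The content was 71.2% in Klf2, 64.8% in Klf6, 74.0% in Klf4 and 71.6% in Klf13. Klf12, the member with almost no reads, had the lowest share at 48.0%. By the RefSeq table the 10 genes lie on 10 different chromosomes.

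The library totals behind the RPKM (reads per kilobase of gene, scaled to library size) were recovered as 24741945 reads for CD4 and 23853921 for CD8. The sorted identities were visible in the coreceptor genes, with Cd4 at 305 RPKM in CD4 cells and 8.89 RPKM in CD8 cells, and Cd8a at 2.50 RPKM in CD4 cells and 518 RPKM in CD8 cells. All 4 general T cell markers, Cd3d, Cd3e, Cd3g and Thy1, were between 142 and 673 RPKM in CD4 and between 149 and 694 RPKM in CD8. Genes were compared when they reached 1 RPKM in at least 1 library, which 10228 did, and a log2 difference of (RPKM + 1), CD4 minus CD8, of 1 or more in size was counted as 2-fold. The pseudocount of 1 understates the difference of low genes. Ratios quoted for single genes are of the deposited RPKM without it, CD4 over CD8, with a 95% Clopper-Pearson interval (exact, from the share of the gene's reads that fell in CD4).

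Of the KLF genes 9 had reads in both libraries and Klf12 had 1 read in all, and none passed the 2-fold rule. Of the 10 members, 0 passed this rule toward CD4, as 2.41% of compared genes did, and 0 toward CD8, as 3.07% did (5.48% in either direction). The log2 difference was above 0 for 3 members, Klf3, Klf10 and Klf13, and below 0 for 7, while 59.5% of compared genes lay above 0 and 40.5% below. The 7 include Klf12, which is not among the compared genes and whose value of -0.01 rests on that 1 read. The median log2 difference of all 10 members was -0.18, against 0.08 over the compared genes. The median size of the difference, sign left aside, was 0.25 for the members and 0.25 for the compared genes. The counting interval of the ratio lay wholly above 1 for 3 members, against 45.0% of compared genes, and wholly below 1 for 5, against 27.1%. It included 1 for Klf9 and Klf12. The 5 include Klf7, whose interval includes 1 at the shortest length its values allow. In whole populations of sorted cells, fewer cells with a transcript and less of it per cell cannot be told apart.

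**Figure D1:**
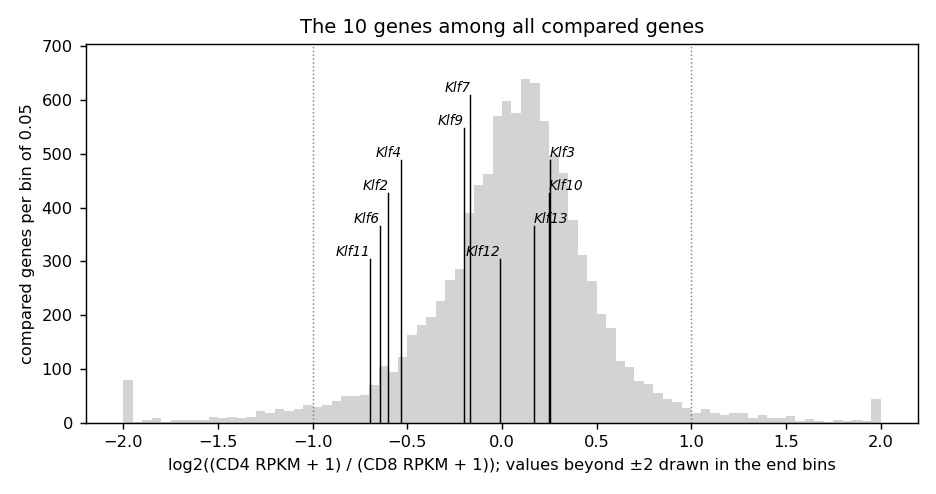
Distribution of the log2 difference (CD4 minus CD8, with 1 RPKM added) over the 10228 compared genes in grey, as genes per bin of 0.05, with the 10 KLF genes as black lines whose height only separates the labels. All 10 lie between the dotted lines at -1 and 1, from -0.69 for Klf11 to 0.25 for Klf3, and Klf12 is drawn although it is not among the compared genes.

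Among the activators, Klf2, the quiescence and recirculation factor, was at 35.4 RPKM in the CD4 library and 54.3 RPKM in the CD8 library, from 1590 and 2347 reads. The ratio was 0.653 (0.612 to 0.696) and the log2 difference -0.60, a value reached or passed on the low side by 7.22% of compared genes. Klf6, a broadly expressed activator, was at 46.4 RPKM in CD4 cells and 73.1 RPKM in CD8 cells, from 4838 and 7351 reads. Its ratio of 0.635 (0.612 to 0.658) was close to that of Klf2, and 6.35% of compared genes had a log2 difference as low as its -0.65. Both genes were thus lower in CD4 by nearly the same factor, and Klf6 stood at 1.31 times the level of Klf2 in CD4 and 1.35 times in CD8.

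Klf4 was far lower than Klf2, at 0.838 RPKM in CD4 cells and 1.66 RPKM in CD8 cells, and it entered the compared genes through the CD8 library alone. Its 63 and 120 reads gave the lowest ratio of the members with reads in both libraries, 0.506, with a wide interval of 0.367 to 0.692. Its log2 difference with the pseudocount was -0.53. These reads rest on a gene length of 3039 bases. The values alone also allow a length of 1013 bases, with 21 and 40 reads and an interval of 0.284 to 0.879. Klf7, the closest relative of KLF6, was nearly even at 14.0 RPKM in CD4 cells and 15.9 RPKM in CD8 cells, with a ratio of 0.884 (0.838 to 0.932). The interval rests on a length of 7695 bases, the multiple closest to an annotated transcript. At the shortest length that the values allow, 95 bases with 33 reads in CD4 and 36 in CD8, it widens to 0.534 to 1.46 and includes 1. Its log2 difference was -0.17, and 0.03 when both libraries were made to sum to 1000000, so its direction depends on the scaling. The 4 activator genes summed to 96.7 RPKM in CD4 cells and 145 RPKM in CD8 cells.

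**Figure D2:**
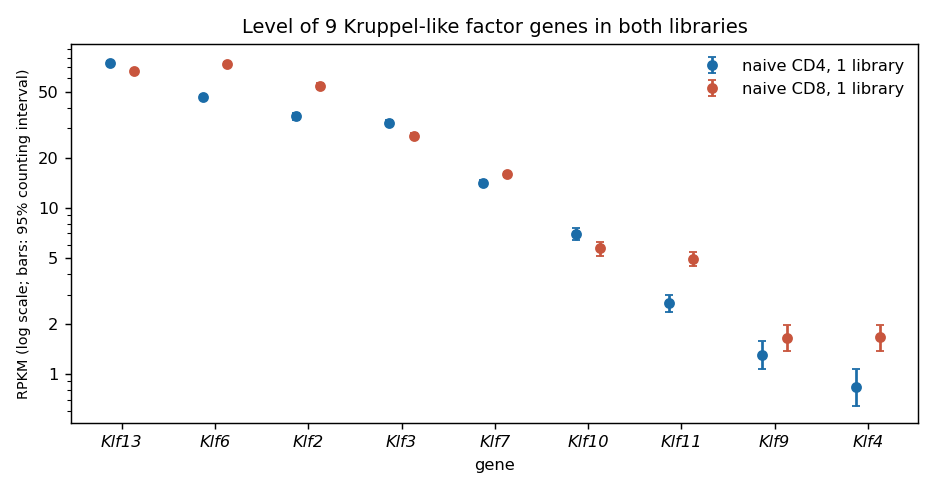
Level of 9 KLF genes in RPKM on a log axis, in order of their mean, with the CD4 library (blue) left of the CD8 library (orange) and bars for the exact 95% Poisson counting interval, where wider than the point. Klf12, with 0 reads in CD4 and 1 in CD8, is not drawn. Klf6, Klf2, Klf11 and Klf4 sit visibly lower in CD4, and Klf13, Klf3 and Klf10 slightly higher.

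Of the genes for CtBP-recruiting repressors, Klf3 was at 32.5 RPKM in CD4 cells and 27.1 RPKM in CD8 cells. Its ratio was 1.20 (1.14 to 1.26), opposite in direction to that of Klf2, and 30.0% of compared genes had a log2 difference as high as its 0.25. Its length could be 4616 or 2308 bases by the values, and with the shorter one the interval widens to 1.12 to 1.28. In CD4 the levels of Klf2 and Klf3 were within 1.09-fold of each other, whereas in CD8 Klf2 was at 54.3 RPKM and Klf3 at 27.1 RPKM. Klf12 had 0 reads in CD4 and 1 read in CD8, and 3 reads would correspond to 0.0212 RPKM in CD4 cells and 0.0220 RPKM in CD8 cells, so no fold is given. A listed 0 is not read here as lack of expression, because Rpl26 and Ndufs5, which all cells use, were listed at 0 in both libraries too.

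The genes for Sin3A-recruiting factors ranged widely in level, and Klf13 was the highest of the 10 in CD4 and second to Klf6 in CD8. Klf13, known as an activator of Ccl5 late in T cell activation, was at 74.8 RPKM in CD4 cells and 66.5 RPKM in CD8 cells, from 11833 and 10136 reads. Its ratio of 1.13 (1.10 to 1.16) was the most precise of the family and its log2 difference was 0.17. Klf10, an early gene of TGF-beta signalling, was at 6.94 RPKM in CD4 cells and 5.68 RPKM in CD8 cells, with a ratio of 1.22 (1.07 to 1.39). Klf11, its close relative, went the other way, at 2.65 RPKM in CD4 cells and 4.91 RPKM in CD8 cells, from 261 and 466 reads. The ratio of Klf11 was 0.540 (0.462 to 0.630). Its log2 difference of -0.69 was the largest in size among the 10 with 1 RPKM added. With 0.1 RPKM added the largest was that of Klf4 at -0.90, and with 5 RPKM that of Klf6 at -0.60. Klf10 stood at 2.62 times the level of Klf11 in CD4 and at 1.16 times in CD8. Klf9, a gene induced by glucocorticoid and thyroid hormones, was at 1.30 RPKM in CD4 cells and 1.65 RPKM in CD8 cells. Its 105 and 128 reads gave a ratio of 0.791 (0.605 to 1.03), so any difference was below what this depth can show.

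**Figure D3:**
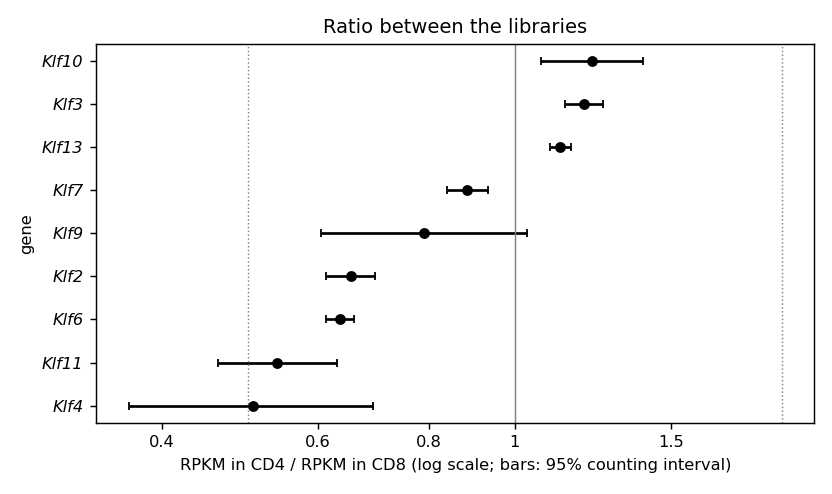
Ratio of RPKM in CD4 over RPKM in CD8 for 9 KLF genes on a log axis, with exact 95% counting intervals as bars, the solid line at 1 and dotted lines at 0.5 and 2. Klf10, Klf3 and Klf13 lie above 1 with their whole intervals, Klf9 crosses 1 (0.605 to 1.03), and the other 5 lie below it at the lengths used.

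The order of the members by level was similar in both libraries and differed at the top. In CD4, Klf13 at 74.8 RPKM was followed by Klf6, Klf2, Klf3, Klf7, Klf10, Klf11, Klf9, Klf4 and Klf12. In CD8, Klf6 at 73.1 RPKM came before Klf13 at 66.5 RPKM, followed by Klf2, Klf3, Klf7, Klf10, Klf11, Klf4, Klf9 and Klf12. Klf13 was at 1.61 times the level of Klf6 in CD4 and at 0.909 times in CD8. Neighbours whose counting intervals overlapped were Klf9 and Klf4 in CD4, and in CD8 Klf10 and Klf11 as well as Klf4 and Klf9. Only 8.35% of compared genes in CD4 and 9.46% in CD8 were at a higher RPKM than Klf13, and for Klf2 the shares were 21.2% in CD4 and 12.0% in CD8.

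The summed level of the 10 genes was 215 RPKM in CD4 cells and 251 RPKM in CD8 cells. Klf13, Klf6, Klf2 and Klf3 supplied most of it. Klf13 made up 34.8% of the sum in CD4 and 26.5% in CD8, and Klf6 made up 21.6% in CD4 and 29.2% in CD8. Klf2 made up 16.5% in CD4 and 21.6% in CD8, and Klf3 made up 15.1% in CD4 and 10.8% in CD8. The activators together made 45.0% of the sum in CD4 and 57.8% in CD8, and the Sin3A-recruiting group 39.9% in CD4 and 31.4% in CD8. After rescaling both libraries to sum to 1000000, the members summed to 470 in CD4 and 473 in CD8, so the difference in the sum rests on the scaling while the shares do not change with it.

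**Figure D4:**
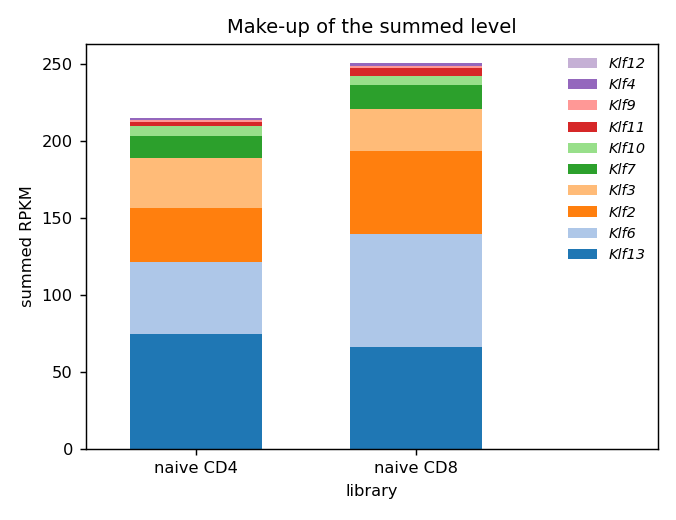
Summed RPKM of the 10 KLF genes in the CD4 library (left) and the CD8 library (right), stacked by gene from the highest mean at the bottom. The sums are 215 RPKM in CD4 cells and 251 RPKM in CD8 cells, and among the 4 tallest segments Klf6 and Klf2 are shorter in CD4 while Klf13 and Klf3 are taller.

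The remaining 7 KLF symbols of the tables were low or without reads. Klf16 was at 5.31 RPKM in CD4 cells and 6.75 RPKM in CD8 cells, with a ratio of 0.786 (0.680 to 0.907). Klf8, another CtBP-recruiting repressor, had 13 reads in CD4 and 80 in CD8, a ratio of 0.157 (0.0800 to 0.283), but stayed under 1 RPKM in both. Klf1, the erythroid KLF, had 0 reads in CD4 and 4 in CD8. Klf5, Klf14, Klf15 and Klf17 were listed at 0 in both libraries. Of the related Sp factors, which bind the same GC boxes, 5 of 9 reached 1 RPKM. Sp3 was at 74.2 RPKM in CD4 cells and 78.4 RPKM in CD8 cells, Sp1 at 42.0 RPKM in CD4 cells and 30.7 RPKM in CD8 cells, with a ratio of 1.37 (1.33 to 1.42), and Sp4 at 36.7 RPKM in CD4 cells and 29.3 RPKM in CD8 cells. Sp6 had a log2 difference of 0.95, just under 2-fold on that scale, and a ratio of 4.35 (2.93 to 6.65) from low levels of 1.68 RPKM in CD4 cells and 0.385 RPKM in CD8 cells. None of the 9 Sp genes passed the 2-fold rule, as 5.48% of compared genes did, and only the 5 that reached 1 RPKM could have.

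Genes known from Klf2-deficient mouse T cells were of 2 kinds. Those that KLF2 maintains were high and near even in the 2 libraries although Klf2 was not. S1pr1, the egress receptor, was at 370 RPKM in CD4 cells and 348 RPKM in CD8 cells, with a ratio of 1.06 (1.04 to 1.08). The ratios of Ccr7 and Itgb7 were 1.06 (1.04 to 1.08) and 1.10 (1.08 to 1.12). Those that are higher in T cells of Klf2-deficient mice were low in CD4. Cxcr3 was at 0.478 RPKM in CD4 cells and 11.3 RPKM in CD8 cells, and Eomes at 1.83 RPKM in CD4 cells and 12.6 RPKM in CD8 cells. Il4 had 1 read in each, and Ccr3 was listed at 0 in both. Of these 7 genes, 0 passed the 2-fold rule toward CD4, against 2.41% of compared genes, and 2 toward CD8, against 3.07%. Their median log2 difference of 0.00 is that of Ccr3, which had no reads, and is not a measured balance. With a filter at 5 RPKM the median was 0.09. Of 6 genes known as KLF4 or KLF13 targets, Ccl5 alone passed the 2-fold rule, as 5.48% of compared genes did in either direction. Ccl5 was at 0.765 RPKM in CD4 cells and 20.4 RPKM in CD8 cells, opposite in direction to Klf13. Cdkn1b, a cell cycle inhibitor that KLF4 induces, was at 72.8 RPKM in CD4 cells and 70.6 RPKM in CD8 cells, Ccnd2 at 118 RPKM in CD4 cells and 121 RPKM in CD8 cells, and Cdkn1a was listed at 0 in both. Bcl2l1 had a ratio of 1.38 (1.09 to 1.75), and Ccnd1 had 5 reads in CD4.

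Of 12 known regulators of KLF genes in lymphocytes, 0 passed the 2-fold rule, against 5.48% of compared genes. A log2 difference above 0 was found for 9 and one below 0 for 3, with a median of 0.12, against 59.5% above 0 and a median of 0.08 over the compared genes, so these counts are near the background. Foxo1, which drives Klf2 in resting T cells, was at 22.9 RPKM in CD4 cells and 18.6 RPKM in CD8 cells, with a ratio of 1.23 (1.18 to 1.28), opposite in direction to Klf2. The ERK5 gene Mapk7 was at 8.58 RPKM in CD4 cells and 8.52 RPKM in CD8 cells. Its upstream kinase gene Map2k5 had a ratio of 0.923 (0.810 to 1.05), Mef2a one of 0.874 (0.830 to 0.920) and Mef2d one of 0.920 (0.863 to 0.980). Elf4, an ETS factor upstream of Klf4 and Klf2 in CD8 cells, was at 12.2 RPKM in CD4 cells and 11.2 RPKM in CD8 cells. In the TGF-beta pathway, which induces Klf10, Tgfbr2 had a ratio of 1.46 (1.44 to 1.49) and Smad3 one of 1.72 (1.62 to 1.83), the largest log2 differences of the list at 0.54 and 0.75.

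Of 19 genes for proteins that KLFs recruit, or that target them for destruction, 18 reached 1 RPKM in at least 1 library. None of the 19 passed the 2-fold rule, 13 were above 0 and 6 below, with a median of 0.11, which is again near the shares over the compared genes. The corepressor gene Ctbp1 was at 120 RPKM in CD4 cells and 118 RPKM in CD8 cells, while Ctbp2 had 0 reads in CD4 and 1 read in CD8. Sin3a was at 26.1 RPKM in CD4 cells and 18.6 RPKM in CD8 cells, with a ratio of 1.40 (1.33 to 1.48), and Sin3b had a ratio of 1.28 (1.23 to 1.34). Hdac1 was at 42.4 RPKM in CD4 cells and 64.1 RPKM in CD8 cells, with a ratio of 0.662 (0.625 to 0.700). Wwp1, a ubiquitin ligase gene for KLF2, had a ratio of 0.910 (0.837 to 0.989), and that of Fbxw7 was 1.11 (1.04 to 1.18).

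Klf2, Klf4, Klf6 and Klf10 respond quickly to handling of cells, as immediate early genes do, so those were set beside them. None of 13 passed the 2-fold rule, as 5.48% of compared genes did, 5 were above 0 and 8 below, with a median of -0.07, and their summed level was 644 RPKM in CD4 cells and 714 RPKM in CD8 cells. Fos was at 49.5 RPKM in CD4 cells and 70.4 RPKM in CD8 cells, Junb at 108 RPKM in CD4 cells and 166 RPKM in CD8 cells, and Dusp1 at 27.7 RPKM in CD4 cells and 38.9 RPKM in CD8 cells. These 3 were lower in CD4, as Klf2, Klf4 and Klf6 were. Klf10 was higher in CD4, with a ratio of 1.22 (1.07 to 1.39). Jun, with a ratio of 1.17 (1.12 to 1.23), Nr4a1, with 1.44 (1.28 to 1.62), and Btg2, with 1.55 (1.51 to 1.60), were higher in CD4 too. Cd69, which opposes S1pr1 at the cell surface, had the largest difference of the list, with a ratio of 0.525 (0.507 to 0.543). Markers of other cell types, some of which express Klf2 or Klf4, were also read. The 4 monocyte and macrophage markers summed to 3.48 RPKM in CD4 cells and 2.88 RPKM in CD8 cells, with Cd14 listed at 0 in both. Of the endothelial markers Cdh5 and Kdr were under 0.2 RPKM in both, and Pecam1, which naive T cells express too, was at 105 RPKM in CD4 cells and 52.4 RPKM in CD8 cells. The dendritic cell markers summed to 0.387 RPKM in CD4 cells and 1.25 RPKM in CD8 cells, with Siglech listed at 0 in both. The erythroid, platelet and stromal markers each summed to at most 0.301 RPKM in either library, with Hba-a1 and Hbb-b1 listed at 0 in both. The 4 B cell markers summed to 3.39 RPKM in CD4 cells and 29.6 RPKM in CD8 cells, of which Cd79b alone was 28.8 RPKM in CD8. The 4 NK cell markers, none of them at 0 in both, summed to 8.55 RPKM in CD4 cells and 111 RPKM in CD8 cells. Klrd1 supplied 106 RPKM of that sum in CD8. Ncr1 went the other way, with 4 reads in CD4 and 0 in CD8, and the other 3 were lower in CD4. The part of immediate early, B cell and NK cell transcripts in the KLF differences was not tested.

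**Figure D5:**
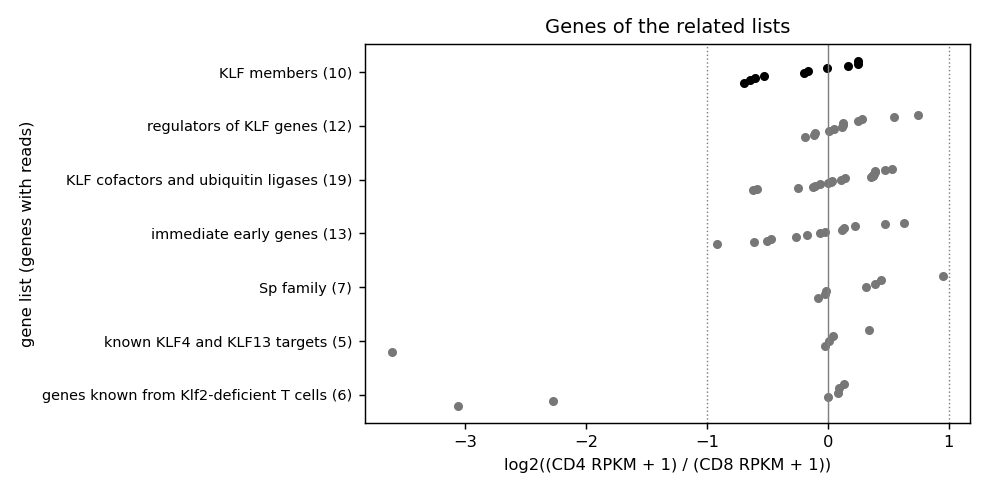
Log2 difference (CD4 minus CD8, with 1 RPKM added) of each KLF gene (black, top) and of each gene with reads in 6 related lists (grey), 1 point per gene with vertical spread only to separate points. Ccl5, Cxcr3 and Eomes, from -3.60 to -2.27, are the 3 points past the dotted lines at -1 and 1.

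The genes with the most similar pair of levels were found by distance in the plane of the log2 values of the 2 libraries, which makes them neighbours in level and no more. Among the 3 genes nearest to Klf13 were Wapal and Uba2, at distances of 0.032 and 0.045. Nearest to Klf6 were Mical1, Hist2h2ac and Imp3, at 0.021 to 0.069, and nearest to Klf11 were Dleu2, 0610009B22Rik and Slc25a33, at 0.031 to 0.054.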

How the data were processed

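Ribosomal-RNA-depleted total RNA of sorted naive CD4 and CD8 cells was prepared with a SOLiD low-input whole-transcriptome protocol, per the labels' protocols. Per the submitters' processing notes, TopHat, HTSeq and build mm9 were used. Their versions, the annotation, the strand setting and the treatment of multiply mapped reads are not given in the sources at hand. In GRCm38 only unlisted genes overlap exons of Klf3 and Klf7 on the opposite strand, so their reads cannot be told apart without strand. The deposited values are RPKM made by the authors, 26882 rows per library for 23167 symbols, and repeated rows were identical and counted once.

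The reads behind the RPKM were then worked out. Low genes most often differ by the same factor, which is the inverse ratio of the totals, and the totals themselves were fixed by asking for whole gene lengths, on the scale of GENCODE M21 transcripts. Of 12735 genes above 0 in both libraries, 12733 gave whole reads within the printed digits, against 2 of 1000 when 1000 reads were added to the CD8 total. Reads and length are known only up to a shared factor, and the length closest to an annotated transcript was used (the smallest possible for 80.7% of genes). Klf3, Klf4 and Klf7 are at a multiple, and the length of 7695 bases for Klf7 is 81 times the smallest. Recovered reads summed to 1.05 times the total in CD4 and 1.06 times in CD8.

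With 1 library per group no p-value was computed. The scripts were tested on data with known totals, reads and folds. Members, gene lists, alternatives and promoter motifs were chosen with earlier results of these data known. All 10 KLF genes and any gene of the lists could be named, and the 3 nearest genes were named for the 2 members with the highest mean and the 2 with the largest difference (Klf6 was both). Some genes that these rules name are not reported here and were left out of the list counts. Alternatives were other pseudocounts, filters and scalings. Python 3.11.15, SciPy 1.17.1 and pandas 2.3.3 were used. Promoter sequences are RefSeq's for GRCm38.p6.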

Additional observations from a re-analysis of the deposited data

How the results depend on the processing

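No paired analysis was possible because there was 1 library per group. No replicate could be left out. The counts of 0 members at least 2-fold higher in either library held under all 7 alternatives of pseudocount, filter and scaling. A filter could not have raised these counts. Nor can a pseudocount or a filter change the sign of a member, so only centring on the median gene and the rescalings bear on direction. Klf3, Klf10 and Klf13 were above 0 under each of these, and Klf7 changed sign under 1, to 0.03 when both libraries were made to sum to 1000000. That rescaling moved the median of all genes by 0.21, and relative to it Klf7 stayed below. The median log2 difference of the members was 0.0006 with a filter at 5 RPKM, which leaves 6 of the 10 members. Across alternatives Klf2 ranged between -0.68 and -0.40, Klf6 between -0.73 and -0.44, Klf11 between -0.86 and -0.37, and Klf4 between -0.90 with a pseudocount of 0.1 RPKM and -0.19 with one of 5 RPKM.

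Genes at least 2-fold higher in CD4 numbered 428 with a pseudocount of 0.1 RPKM, 73 with 5 RPKM, 152 with a filter at 5 RPKM and 600 after rescaling to a sum of 1000000. It was 247 with 1 RPKM added and the values as deposited. Those at least 2-fold higher in CD8 numbered 314 in that way, 462 with a pseudocount of 0.1 RPKM, 125 with one of 5 RPKM, 208 with a filter at 5 RPKM and 368 after centring on the median gene. Genes higher in CD4 were 64.9% of those past 2-fold after that rescaling, against 44.0% as deposited. The members summed to 470 in CD4 and 473 in CD8 after it, and to 219 RPKM in CD4 cells and 246 RPKM in CD8 cells after rescaling to the housekeeping genes. Ranked by reads per gene in place of RPKM, 3 members changed rank in CD4 and 9 in CD8. Of 122 further values of single genes and lists under alternatives, 102 moved by less than the counting error and 20 by more. The cause of these shifts was not tested. Some of the 102 were fixed in advance, because a filter leaves the value of a single gene unchanged. The values of Klf12 and of the list of other KLF genes could not count as moved, for want of a finite counting error. Depth limits the statements on Klf4, Klf9 and Klf12.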
